A study of Mus musculus with 6 samples.

Results

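Trp53, which encodes the transcription factor p53, and 9 of its target genes were followed across 6 droplet single-cell libraries of mouse glioma cells. The 10 genes were picked by symbol (Trp53, Cdkn1a, Mdm2, Ccng1, Bax, Trp53inp1, Phlda3, Zmat3, Eda2r and Sesn2) out of 54446 gene rows. The rule holds no measured value, but the genes were proposed with earlier results of these data known. GL261, a widely used mouse glioma line, was sampled in 2 libraries from culture in a differentiation medium with fetal calf serum. GL261-GSCs, the cultures derived from that line and labelled glioblastoma stem cells, were sampled in 4 libraries from a defined medium and include neurospheres. The comparison asks how p53 and its target genes differ between these states of a single line. Medium, derivation and state change together between the groups and cannot be told apart. The labels do not say that the libraries of a group came from separate cultures, so the p-values measure the spread between libraries, which may be technical.

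p53 is stabilised by DNA damage and other stress, binds DNA as a tetramer, and turns on genes that halt the cell cycle, start apoptosis, repair DNA or adjust metabolism. Mdm2, itself a target, is the ubiquitin ligase that marks p53 for destruction, which closes a negative feedback loop. Much of the control of p53 acts on the protein, so the Trp53 transcript level does not measure p53 activity. GL261 is known from other work to carry point mutations in Trp53, and the UMI counts used here hold no sequence with which to examine that.

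The p53 half-site, the motif bound by a pair of p53 subunits, was looked for in the promoters. The genes were chosen as p53 targets, a class known in part through such sites, so the share that holds one is not independent of the choice. RefSeq promoter windows (GRCm38.p6, from 250 bases before to 50 bases after a transcript start) were found for 8 of the 10 genes, with 9 windows in all since Cdkn1a has 2 starts that lie 2790 bases apart. Trp53inp1 and Zmat3 were not matched. The half-site consensus reads the same on both strands, and an exact match occurred in 5 of the 9 windows (55.6%), against 8.36% of the 32851 windows of all genes. These are the stretches around the matches, 5′ to 3′ on the strand of the gene, with the half-sites in capitals.
Cdkn1a (chr17:29090892-29090951, plus strand): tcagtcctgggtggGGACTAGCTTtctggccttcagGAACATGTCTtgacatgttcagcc
Ccng1 (chr11:40755437-40755496, minus strand): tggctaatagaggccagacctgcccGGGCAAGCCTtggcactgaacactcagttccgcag
Mdm2 (chr10:117710910-117710969, minus strand): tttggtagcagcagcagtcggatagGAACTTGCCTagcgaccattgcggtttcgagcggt
Bax (chr7:45467065-45467124, minus strand): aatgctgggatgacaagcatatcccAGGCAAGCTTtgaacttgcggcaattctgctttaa
Trp53 (chr11:69580259-69580318, plus strand): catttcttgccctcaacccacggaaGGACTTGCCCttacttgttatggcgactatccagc

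In Cdkn1a the second half-site, 51 to 42 bases before the more upstream of its 2 starts, is followed directly by a second copy with 1 mismatch. In Ccng1 the half-site 185 to 176 bases before the start is preceded directly by a copy with 1 mismatch. Such a full site, a pair of adjacent half-sites with at most 2 mismatches, none of them at the fixed C and G of either core, occurred in 2 of the 9 windows (22.2%), those of Cdkn1a and Ccng1, and in 0.326% of all windows. The other stretches hold a single half-site, 186 to 177 bases before the start in Mdm2, 201 to 192 in Bax and 75 to 66 in Trp53. The windows of Phlda3, Sesn2 and Eda2r and the window of the downstream start of Cdkn1a held no exact half-site. A match is a run of letters, and its binding by p53 was not measured here.

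The libraries held 33320530 to 79472306 UMIs (unique molecules counted) in 4264 to 7275 called cells, with medians of 6670 to 15477.5 UMIs per cell. GL261-GSCs replicate 4 stood apart in depth, with the fewest UMIs per cell, 41.2% of its UMIs in cells against 56.7% to 65.7% elsewhere, and free RNA worth 9.21% of a median cell against 3.22% to 5.09%. The mitochondrial share of all UMIs in cells was 1.175% and 1.11% in the GL261 libraries and higher in those of GL261-GSCs (1.33%, 1.35%, 1.76% and 1.9%), and that of Malat1 and Neat1 was 0.853% in GL261-GSCs replicate 4 against 0.31% to 0.478% elsewhere. The GL261-GSCs libraries fell into pairs, with a median absolute log2 difference over the 18439 tested genes of 0.143 between replicates 1 and 2 and 0.161 between 3 and 4, against 0.202 to 0.319 across them. The labels do not say whether such a pair shares a culture. Pairs of libraries shared 32 to 59 cell barcodes, close to the number that chance gives for each pair (26.1 to 57.9). Of the 5 stem and oligodendrocyte lineage markers, Olig2, Pdgfra and Sox2 were higher and Nes lower in GL261-GSCs, and Sox10 did not pass the test. The 3 mesenchymal markers Vim, Cd44 and Ly6a were lower. Defining markers of microglia (Ptprc, Aif1, Cx3cr1), neurons (Rbfox3, Snap25) and red cells (Hbb-bs, Hba-a1) were at or near 0, while Csf1r was at 12.9 and 12.6 CPM (UMIs scaled to a common library total) in GL261 and at most 0.243 CPM in GL261-GSCs. Of the endothelial markers, Kdr was near 0, Pecam1 was at 0.334 to 1.3 CPM and Cdh5 at 0.311 and 0.464 CPM in GL261 and at most 0.0138 CPM in GL261-GSCs. Syt1 was at 1.15, 12.4, 51.6 and 78.2 CPM in GL261-GSCs replicates 1 to 4, against at most 0.0331 CPM in GL261. The part of these differences in the results was not tested.

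Between the groups, Phlda3, Bax and Ccng1 fell and Trp53inp1 rose in GL261-GSCs. Phlda3 was 2.42-fold lower, Bax 1.89-fold and Ccng1 1.49-fold, and Trp53inp1 was 5.1-fold higher. Trp53 itself was lower in each GL261-GSCs library than in both GL261 libraries but missed the threshold. Cdkn1a, Mdm2, Zmat3 and Sesn2 had overlapping groups and did not pass the test. With 9 of the 10 genes tested, 4 were called at an adjusted p under 0.05 (44.4%), 1 higher and 3 lower, against a background of 29.9% of the 18439 genes tested, with 15.8% called higher and 14.1% lower. With library size as the only scaling the calls over all genes split into 3491 higher and 2034 lower, against 2920 and 2594 with TMM, and the median over all genes moved from 0.04 to 0.18. The groups did not overlap for 5 of the 9, against 56.7% of the genes tested overall. The median log2 fold change of the 9 was -0.43, against 0.04 over all genes tested. CPM values come from UMIs summed over the cells of a library and divided by TMM-scaled library sizes, and the test is edgeR's quasi-likelihood test with Benjamini-Hochberg adjustment over all genes.

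**Figure D1:**
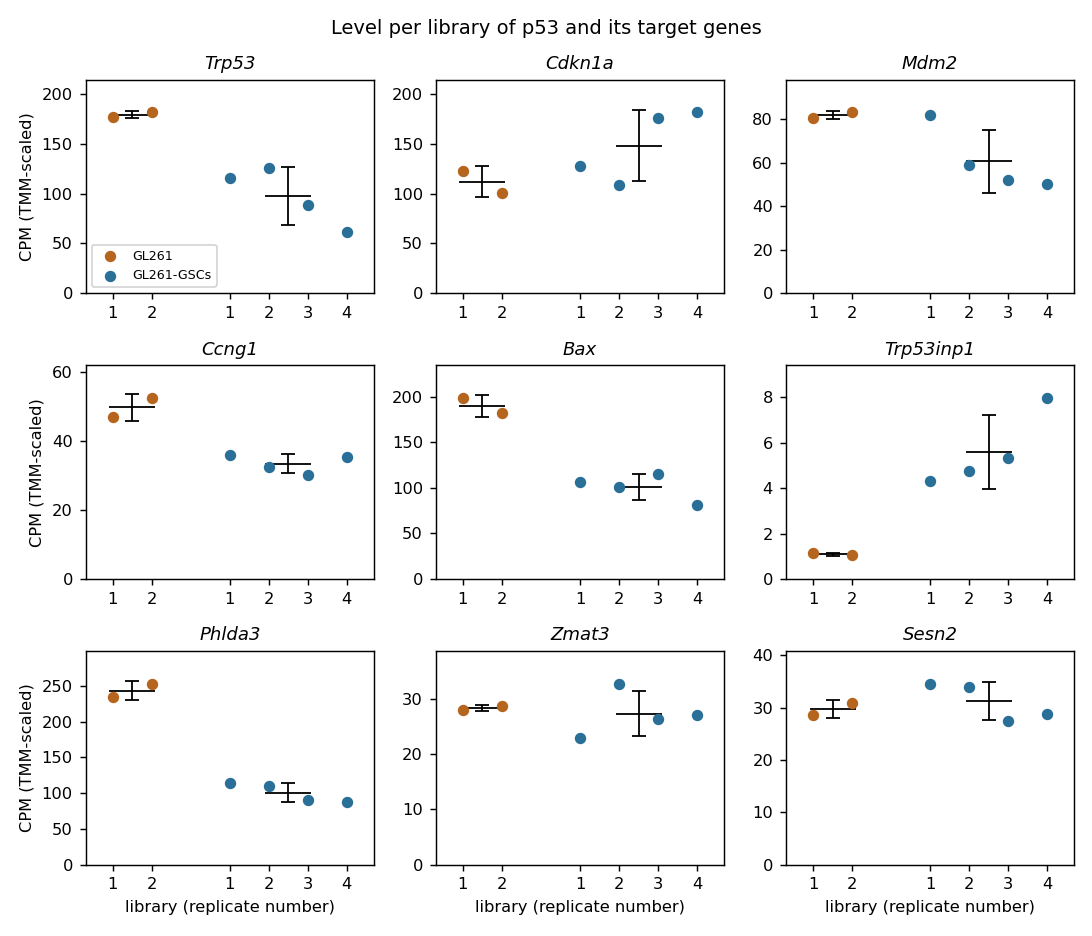
CPM of 9 genes in each library (points) with the group mean and SD (black bars); brown is GL261 (n = 2), blue GL261-GSCs (n = 4), and the y axes start at 0. Phlda3, Bax, Ccng1 and Trp53 lie lower in every GL261-GSCs library than in both GL261 libraries, and Trp53inp1 lies higher.

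Trp53 (chr11:69580359-69591873, plus strand, GRCm38) was at 177 and 181 CPM in GL261 and at 116, 126, 88.8 and 61.3 CPM in GL261-GSCs replicates 1 to 4. The 4 stem cell libraries lay below both GL261 libraries, and replicate 4 was the lowest. The log2 fold change was -0.87 (SE 0.27) with an adjusted p of 0.0511. It passed the threshold in 8 of 16 alternative analyses, all with the same sign, with log2 fold changes of -0.99 to -0.57 and adjusted p from 0.0149 to 0.227. Leaving out GL261-GSCs replicate 4 gave -0.68 with an adjusted p of 0.0284. The -0.57 came from the fit with the replicate number as a block, in which only GL261-GSCs replicates 1 and 2 enter the difference. That fit, 1 of the 8 in which Trp53 passed, leaves almost no replication from which to measure the spread. The 20 tested genes nearest to Trp53, within 0.189 Mb, had a median of -0.58 on the same scale, with 6 called lower and 2 higher, and the 1321 tested genes of chromosome 11 a median of -0.28. Whether this setting had a part in the Trp53 values was not tested. A processed copy of the gene, Trp53-ps on another chromosome, held 2184 UMIs against 48979 for Trp53, so some reads could have been assigned to either.

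Mdm2 and Ccng1 belong to the feedback on p53. Mdm2 (chr10:117688875-117710758, minus strand) was at 80.7 and 83.3 CPM in GL261 and at 81.9, 58.9, 52.1 and 50.1 CPM in GL261-GSCs. Replicate 1 of the stem cell cultures matched GL261, and replicates 2 to 4 lay below it, so the groups overlapped. The log2 fold change was -0.43 (SE 0.21, adjusted p = 0.166), and -0.59 with an adjusted p of 0.0151 without GL261-GSCs replicate 1, the only one of 16 alternatives in which it was called. Ccng1 (chr11:40748552-40755311, minus strand) encodes cyclin G1, which recruits a phosphatase that activates Mdm2. It was at 47 and 52.5 CPM in GL261 and at 36, 32.5, 30.1 and 35.2 CPM in GL261-GSCs, with no overlap. The difference, -0.57 on the log2 scale (SE 0.13, adjusted p = 0.0169), passed the test, but not with library size as the only scaling (-0.42, adjusted p = 0.0587), without GL261 replicate 1 (adjusted p = 0.0871) or without GL261 replicate 2 (adjusted p = 0.175). The 20 tested genes nearest to Ccng1, within 5.2 Mb, had a median of -0.11 on that scale, with 0 called higher and 3 lower, beside the chromosome 11 median of -0.28. The part of this setting in the Ccng1 value was not tested.

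Cdkn1a (chr17:29090976-29100727, plus strand) encodes p21, the inhibitor of cyclin-dependent kinases through which p53 halts the cell cycle. Its level was 123 and 101 CPM in GL261 and 127, 108, 175 and 181 CPM in GL261-GSCs replicates 1 to 4. Replicates 3 and 4 were the high ones, replicate 2 lay between the GL261 libraries, and the groups overlapped. The difference, 0.40 on the log2 scale (SE 0.24, adjusted p = 0.25), was positive but not called in any of 16 alternatives, where it ranged from 0.08 to 0.55. The 0.08 came from the fit with the replicate number as a block, which leaves GL261-GSCs replicates 3 and 4 out of the difference. The tested genes of chromosome 17 had a median of 0.22, and the 20 nearest to Cdkn1a a median of 0.39 with 5 called higher and 1 lower. Against the other stem cell libraries, the chromosome 17 median was -0.20 and -0.04 in replicates 1 and 2 and 0.14 and 0.11 in replicates 3 and 4, the libraries with the high Cdkn1a values. The part of that setting in the Cdkn1a value was not tested.

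Among the genes tied to cell death, Bax (chr7:45461697-45466898, minus strand) encodes the protein that opens the outer mitochondrial membrane during apoptosis. It was at 199 and 182 CPM in GL261 and at 106, 101, 115 and 81.1 CPM in GL261-GSCs, with every stem cell library far below both GL261 libraries. The log2 fold change was -0.92 (SE 0.16, adjusted p = 0.0065). That call was lost without GL261 replicate 1 (-0.86, adjusted p = 0.0714) and without GL261 replicate 2 (-0.98, adjusted p = 0.0529). The 20 genes nearest to Bax had a median of -0.16, with 4 called higher and 5 lower, and chromosome 7 had one of -0.24. Phlda3 (chr1:135766119-135769136, plus strand) encodes a small pleckstrin homology protein that competes with the kinase Akt for membrane lipids and so restrains survival signalling. It was at 234 and 253 CPM in GL261 and at 114, 110, 89.8 and 88 CPM in GL261-GSCs, the clearest separation among the genes that fell. Its 20 nearest genes had a median of -0.07, with 6 called higher and 3 lower, and chromosome 1 had one of 0.17. The difference, -1.28 on the log2 scale (SE 0.15, adjusted p = 0.0014), passed the test in each of 16 alternatives, between -1.34 and -1.12. Eda2r (chrX:97333840-97377216, minus strand), a receptor of the tumour necrosis factor family, had 1 UMI in all called cells, in GL261-GSCs replicate 4, and could not be tested. In GL261 replicate 1, 0 of 4808 cells with an Eda2r UMI allows a share of up to 0.0624% by the limit of 3 counts, and the upper bound of the exact 95% interval is 0.0767%. Both cover counting error only and limit the cells with a UMI, not the cells that express the gene.

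Trp53inp1 (chr4:11156431-11174379, plus strand) encodes a stress-induced nuclear protein that aids the phosphorylation of p53 and also acts in autophagy. It was the scarcest of the tested genes in UMIs, with 77 and 63 in the GL261 libraries and between 284 and 426 in those of GL261-GSCs. In CPM it was at 1.14 and 1.04 in GL261 and at 4.31, 4.78, 5.33 and 7.97 in GL261-GSCs, so that the lowest stem cell library stood well above both GL261 libraries. The log2 fold change was 2.35 (SE 0.34, adjusted p = 0.0031), and it was called in each of 16 alternatives, between 2.05 and 2.88. Replicate 4, the library with the most free RNA, was the highest, and without it the value was 2.16 (adjusted p = 0.0026). The 20 genes nearest to Trp53inp1 had a median of 0.24, with 4 called higher and 0 lower, while the chromosome 4 median was 0.00178. For Bax, Phlda3 and Trp53inp1 too the part of the neighbourhood was not tested.

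Sesn2 and Zmat3 differed least. Sesn2 (chr4:132492032-132510501, minus strand) encodes sestrin 2, a stress protein that restrains the growth regulator mTORC1. It was at 28.6 and 30.9 CPM in GL261 and at 34.6, 34, 27.5 and 28.9 CPM in GL261-GSCs, with overlapping groups (log2 fold change 0.07, SE 0.15, adjusted p = 0.743). Zmat3 (chr3:32334792-32366014, minus strand) encodes a zinc finger protein that binds RNA. It was at 27.9 and 28.7 CPM in GL261 and at 22.9, 32.7, 26.3 and 27.1 CPM in GL261-GSCs, with stem cell libraries on both sides of GL261 (log2 fold change -0.06, SE 0.17, adjusted p = 0.824). The sign of the Zmat3 value turned with library size as the only scaling (0.09) and without GL261-GSCs replicate 1 (0.04).

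A level summed over cells cannot tell fewer cells with a transcript from less RNA in each. Each cell was also thinned to 2000 UMIs and the cells in which a gene had any UMI were counted, a share that follows the mean level at this depth and does not separate these either. Phlda3 was seen in 31.3% and 34.8% of GL261 cells and in 19.3%, 19.4%, 15.3% and 16.7% of cells of GL261-GSCs replicates 1 to 4. Bax was seen in 30% and 27.5% of GL261 cells and in 17.2%, 18.5%, 18.5% and 13.3% of GL261-GSCs cells. Trp53 was seen in 27.4% and 27.9% against 20.4%, 22.4%, 16.5% and 11.1%. For these 3 genes the largest stem cell share lay below the smallest GL261 share by more than the 95% exact (Clopper-Pearson) intervals, which cover counting error only. Cdkn1a was seen in 18.615% and 15% of GL261 cells and in 21.2%, 18.62%, 26.2% and 28.8% of GL261-GSCs cells, so that replicate 2 and GL261 replicate 1 nearly met. The mean share for Cdkn1a was 16.8% ± 2.59 (SD, n = 2) over the GL261 libraries, and for GL261-GSCs it was 23.7% ± 4.65 (SD, n = 4). Thinned to 1000 UMIs, the Cdkn1a shares of the groups overlapped.

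Trp53inp1 was rare in both groups, in 0.229% and 0.12% of GL261 cells and in 1.31%, 1.19%, 1.33% and 2.31% of GL261-GSCs cells. Mdm2, in 13.9% and 14.4% of GL261 cells, was in 16% of cells of GL261-GSCs replicate 1 and in 11.7%, 11.1% and 11.8% of those of replicates 2 to 4. Ccng1 shares averaged 8.22% ± 0.0586 (SD, n = 2) in GL261, and those of GL261-GSCs lay below, at 6.65% ± 0.644 (SD, n = 4). For Sesn2 the GL261 mean was 5.04% ± 0.364 (SD, n = 2) and the GL261-GSCs mean lay above it at 6.49% ± 0.725 (SD, n = 4). Neither pair overlapped, although the CPM of Sesn2 did. The nearest libraries were nevertheless close, and their exact intervals overlapped for both genes. For Sesn2, GL261-GSCs replicate 3 was at 5.4% (4.89% to 5.95%) and GL261 replicate 2 at 5.3% (4.69% to 5.96%). For Ccng1, GL261-GSCs replicate 4 was at 7.49% (6.74% to 8.3%) and GL261 replicate 1 at 8.17% (7.41% to 8.98%). For shares, unlike CPM, no background of non-overlap over all genes is given. The Zmat3 shares overlapped, with means of 6.15% and 5.46%. With 15 ways to split the libraries the smallest p of the exact permutation test (2-sided) is 0.133, so that no share could pass 0.05. The genes without overlap had that p, 0.19 after adjustment over the 10 genes.

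**Figure D2:**
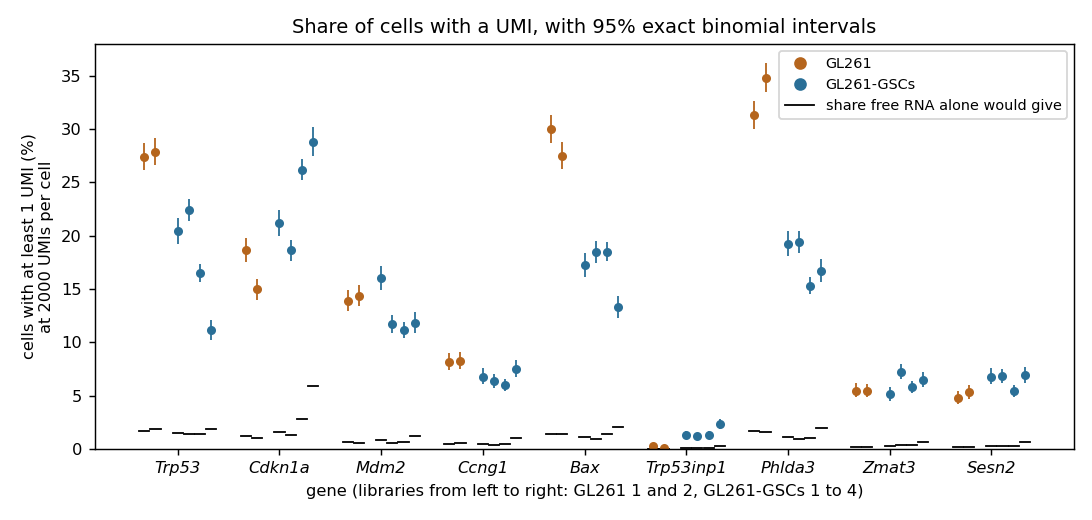
Percent of cells (y axes) with a UMI of the gene at 2000 UMIs per cell, for 9 genes and 6 libraries (points with 95% exact binomial intervals; brown GL261, blue GL261-GSCs), with the share that free RNA alone would give as black dashes. Phlda3, Bax and Trp53 shares are lower in each GL261-GSCs library, Trp53inp1 shares are higher, and each point lies above its dash.

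Before thinning, the shares moved with depth. Trp53 was then seen in 82.5% and 81.7% of GL261 cells and in 76.2%, 72.2%, 55.5% and 34.9% of GL261-GSCs cells, and Cdkn1a in 62.3% and 53.4% against 67.5%, 56.7%, 66.4% and 58.8%. No cell type in these cultures is known to lack the genes, so free RNA was read from nearly empty droplets, the barcodes with 100 UMIs or more but fewer than 1000. It alone would give a Cdkn1a UMI in 1.21% and 1.01% of thinned GL261 cells and in 1.58%, 1.34%, 2.81% and 5.86% of GL261-GSCs cells, highest in replicate 4. For Phlda3 it would give 0.88% to 1.94% over the 6 libraries, and for Trp53inp1 0.00756% to 0.288%.

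Few cells showed several of the 9 targets at once at this depth. No target had a UMI in 28.7% and 28% of GL261 cells and in 36.2%, 38.2%, 37.4% and 35.8% of GL261-GSCs cells. At least 3 targets had one in 8.03% and 7.62% of GL261 cells and in 5.44%, 4.8%, 4.74% and 5.36% of GL261-GSCs cells. In both counts the groups did not overlap, and the stem cell cultures had more cells without a detected target. Such counts weigh the often seen genes most, and in GL261 these were Phlda3 and Bax. Shares of Phlda3, Bax and Ccng1 were lower in GL261-GSCs, whereas those of Cdkn1a, Sesn2 and Trp53inp1 were higher. The direction therefore does not hold for each of the 9 targets, and the counts were not made without Phlda3 and Bax.

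The 4 lists of p53 regulators and other p53 targets held 51 tested genes, of which 14 were called (27.5%), a share near the background of 29.9% over all genes tested. Of 15 tested p53 regulators, Hipk2 and Mdm4 were higher and none was lower, with a median log2 fold change of 0.28. Hipk2, a kinase that phosphorylates p53, was at 13.9 and 11.7 CPM in GL261 and at 92.2, 107, 71.6 and 73.3 CPM in GL261-GSCs (log2 fold change 2.75, SE 0.23, adjusted p = 3.86e-04). Mdm4, a relative of Mdm2 that binds p53 and blocks its transactivation, was at 24.5 ± 0.905 CPM (SD, n = 2) in GL261, and the stem cell cultures had 41.4 ± 4.42 CPM (SD, n = 4; log2 fold change 0.76, adjusted p = 0.0093). Lower calls numbered 0 by edgeR, 0 at an unadjusted p under 0.05, and 0 by limma-voom and by DESeq2. Higher calls numbered 2 by edgeR, 4 at an unadjusted p under 0.05, 2 by limma-voom and 4 by DESeq2. The kinases Atm, Atr, Chek1 and Chek2 did not pass the test, with log2 fold changes of 0.08, 0.65, 0.30 and 0.28.

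Of 11 tested other targets linked to cell cycle arrest, 4 were higher and 1 was lower, with a median of -0.01. Btg2, an antiproliferative gene, was at 6.99 and 4.97 CPM in GL261 and at 44, 19.7, 64.5 and 62.1 CPM in GL261-GSCs (log2 fold change 2.99, SE 0.53, adjusted p = 0.007). Plk3, a polo-like kinase, had a log2 fold change of 0.93, and Rap2b, a small GTPase, one of 1.27. Sfn, which encodes 14-3-3 sigma, was lower (-2.29) at under 0.3 CPM in every library, a call lost in 3 of 15 alternatives, among them those without either GL261 library, with an adjusted p of at most 0.144. Ptprv, a phosphatase gene named because it was the remaining call, had 1.69 at under 1.3 CPM, with 14 and 20 UMIs in GL261. Its call was lost in 6 of 16 alternatives, among them cells thinned to 2000 UMIs (adjusted p = 0.166). Rprm was not called (log2 fold change 6.46, SE 2.34, adjusted p = 0.0791), with 0.0455 and 2.91 CPM in GL261-GSCs replicates 1 and 2 and 28.9 and 29.6 CPM in replicates 3 and 4.

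Of 9 tested other targets of cell death, 1 was higher and 2 were lower. Bbc3, which encodes the BH3-only protein Puma, was at 12.7 and 14 CPM in GL261 and at 31.8, 22.8, 37.6 and 39.4 CPM in GL261-GSCs (log2 fold change 1.30, SE 0.25, adjusted p = 0.0091). The death receptor gene Tnfrsf10b (-0.70, adjusted p = 0.0301) and Pidd1, a scaffold for caspase 2 (-0.89, adjusted p = 0.0498), were lower, near the threshold, and lost the call in 8 and 11 of 16 alternatives. Pmaip1, which encodes Noxa, and Perp had 0 UMIs in all 6 libraries. The median of this list was -0.66.

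Of 16 tested targets of metabolism and repair, 2 were higher and 2 lower, with a median of 0.17, and limma-voom and DESeq2 each called 3 higher and 2 lower. Sesn1, the sestrin related to Sesn2, was higher (log2 fold change 1.34, adjusted p = 0.0143), as was Ddit4 (1.69, adjusted p = 0.0253), which encodes an inhibitor of mTORC1. Ddit4 was at 223 and 226 CPM in GL261 and at 514, 404, 921 and 1066 CPM in GL261-GSCs. Gdf15, a secreted stress factor, was lower at 14.4, 21, 13.5 and 20.1 CPM in GL261-GSCs against 64.2 and 73.3 CPM in GL261 (3.99-fold, SE 0.21 on the log2 scale, adjusted p = 9.17e-04). Ddb2, which recognises ultraviolet damage in DNA, was lower too (-1.48, adjusted p = 0.0018).

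For cell cycle genes too the background was 15.8% called higher and 14.1% lower. Of 18 tested G2/M genes, 0 were higher and 2 were lower by edgeR, Kif20a (a mitotic kinesin, log2 fold change -1.02) and Cdc25c (the phosphatase that activates Cdk1, -0.84), with a median of -0.18. At an unadjusted p under 0.05, 1 was higher and 5 were lower, and DESeq2, which called 6760 of all genes, gave the same numbers, against 0 and 2 by limma-voom. Of 16 tested G1/S genes, Rrm2 (-1.16) and E2f1 (-0.64) were lower. E2f1 lost its call in 4 of 16 alternatives, among them library size as the only scaling (-0.49, adjusted p = 0.0533) and either GL261 library left out, with an adjusted p of at most 0.161. None of the 6 CDK inhibitors other than Cdkn1a was called by edgeR, limma-voom or DESeq2, and 0 had an unadjusted p under 0.05.

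Since Sesn2 is also a target of the stress factor ATF4, a list of ATF4 targets was set beside it. All 10 had a negative log2 fold change, with a median of -0.73, and 4 were called, all lower, against 14.1% lower over all genes: Asns (-1.07), Chac1 (-1.69), Trib3 (-0.86) and Phgdh (-0.91), which act in amino acid supply and the stress response. Sesn2 had 0.07.

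**Figure D3:**
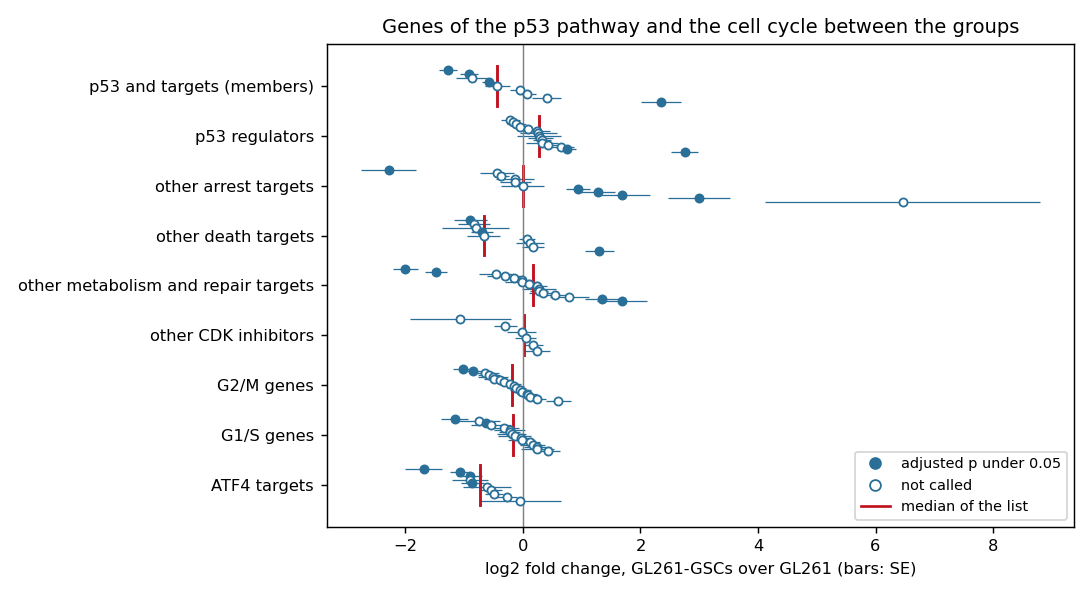
Log2 fold change of each tested gene between GL261-GSCs and GL261 (points, bars are SE), by gene list; filled points have an adjusted p under 0.05 and red lines are list medians. The p53 target lists hold genes called in both directions, whereas the points of the ATF4 list all lie below 0; the point near 6.46 is Rprm.

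Leaving out either GL261 library removed most calls, over all genes as in these lists. Such a fit holds 1 GL261 library, so its spread comes from the GL261-GSCs libraries alone. This limit applies to every result in this text that leaves out a GL261 library in the group comparison. All calls then numbered 1972 of 19112 genes without GL261 replicate 1 and 1817 of 19544 without GL261 replicate 2, against 5514 of 18439 with both. Without GL261 replicate 1, the genes called numbered 1 of the regulators, 0 of the arrest targets, 0 of the death targets, 2 of the metabolism and repair targets, 1 of the G2/M genes, 0 of the G1/S genes and 1 of the ATF4 targets. Without GL261 replicate 2 they numbered 1, 0, 0, 2, 0, 0 and 0. Hipk2, Ddb2 and Gdf15 passed the test in each of 16 alternatives.

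Within each library, cells with at least 1 Cdkn1a UMI at 2000 UMIs (748 to 1907 per library) were set against cells with none (3211 to 5368). The library was a block and Cdkn1a was not tested. None means none after thinning, and many of these cells held a Cdkn1a UMI before it. In GL261 replicate 1, 2997 of 4808 cells held one before thinning and 895 after. The ratios therefore do not compare cells that have the transcript with cells that lack it. Cells with a Cdkn1a UMI had more Sesn2 and slightly more Phlda3, fewer transcripts of mitotic genes, and more transcripts of ATF4 targets. The test covered 11933 genes and called 453 (3.8%), 1.9% higher and 1.89% lower in the cells with Cdkn1a. Of the 8 p53 genes tested, 2 were higher and 0 lower, with 0 lower also at an unadjusted p under 0.05 and by limma-voom.

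Sesn2 was at 33 and 46.8 CPM in the GL261 cells with a Cdkn1a UMI, against 23.5 and 25.2 CPM in those without. In GL261-GSCs replicates 1 to 4 it was at 47.6, 56.3, 34.6 and 45.7 CPM, against 35.6, 33.5, 26.4 and 35.5 CPM. It was thus higher in the Cdkn1a class in 6 of 6 libraries, from 59 to 132 UMIs each. The log2 ratio was 0.54 (SE 0.08, adjusted p = 3.17e-07), and it was called in each of 13 alternatives, GL261 alone (0.69, adjusted p = 0.0246) and GL261-GSCs alone (0.51, adjusted p = 7.52e-07) included.

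Phlda3 was at 227 and 257 CPM in the GL261 cells with a Cdkn1a UMI and at 201 and 222 CPM in those without. In GL261-GSCs it was at 112, 116, 96.2 and 108 CPM against 107, 110, 81.7 and 86.6 CPM, so the step was small but in the same direction in 6 of 6 libraries. The log2 ratio was 0.18 (SE 0.04, adjusted p = 0.0074). It was not called with a class of at least 2 UMIs (adjusted p = 0.207), without a filter on low counts (adjusted p = 0.137), in GL261 alone (adjusted p = 0.315) or without GL261-GSCs replicate 4 (0.16, adjusted p = 0.05).

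The other p53 genes were not called between the Cdkn1a classes. Log2 ratios were 0.04 for Trp53, 0.03 for Mdm2, 0.00157 for Ccng1, 0.02 for Bax, -0.03 for Zmat3 and 0.21 for the scarce Trp53inp1. Trp53inp1 had the largest SE of these (0.18), and in the GL261 cells with a Cdkn1a UMI it rested on 4 and 3 UMIs.

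Of 18 G2/M genes, 14 were lower and 0 higher in the cells with a Cdkn1a UMI, with a median log2 ratio of -0.27 against -0.01 over all genes tested. All 18 ratios were negative, 16 were negative at an unadjusted p under 0.05 and 0 positive, and limma-voom also called 14 and 0. Cenpf, a kinetochore protein, had -0.42 (SE 0.04, adjusted p = 4.96e-13), Cdc20 -0.35, Ube2c -0.30 and Mki67 -0.28, each lower in 6 of 6 libraries. Of 16 G1/S genes only Ccne1 was called, which encodes cyclin E1, a partner of the kinase that p21 inhibits (log2 ratio 0.29, adjusted p = 0.01, higher in 5 of 6 libraries), and 0 were lower, with 1 lower at an unadjusted p under 0.05 and 0 by limma-voom. With a class of at least 2 UMIs, without a filter on low counts, or in GL261 alone, 0 G1/S genes were called.

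Of the 10 ATF4 targets 7 were higher and 0 lower, with a median log2 ratio of 0.34. In GL261 alone, with 2 libraries, 1 ATF4 target and 3 G2/M genes were called. Trib3 (0.74, adjusted p = 1.29e-07), Ddit3 (0.59), Cebpb (0.38) and Atf4 itself (0.25) were each higher in 6 of 6 libraries. In the group comparison the same list had no positive fold change. Of the other p53 targets, Gadd45a (0.74), Btg2 (0.54), Gdf15 (0.58), Bbc3 (0.36) and Ddit4 (0.25) were higher in cells with a Cdkn1a UMI, out of 33 tested in the lists of arrest, death, metabolism and repair, and 0 were lower, also by limma-voom; at an unadjusted p under 0.05 there were 1 lower arrest target and 1 lower death target. Atr was the 1 called regulator (-0.32), and Cdkn2b the 1 called CDK inhibitor (0.44).

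The genes most like Cdkn1a, by smallest p among those higher in the cells with it, were Sqstm1, Atf3, Tcim, Junb, Mt3, Nfkbia, Slc2a1, Cst6, Btg2 and Klf4, each higher in 6 of 6 libraries. They were picked by this comparison, so their ratios are a description. In GL261 alone 5 of them were not called, Tcim (1 UMI in the Cdkn1a class of replicate 2), Mt3, Nfkbia, Slc2a1 and Cst6. Atf3, a stress-induced transcription factor, had the largest log2 ratio of these (0.89, SE 0.09, adjusted p = 9.42e-12), and the autophagy receptor Sqstm1 the smallest p (0.43, SE 0.03, adjusted p = 4.61e-16). Among genes lower in the cells with Cdkn1a, the smallest p values belonged to Aspm (-0.58), Cenpf, Cdc20, Ube2c and Cenpe (-0.39), all genes of mitosis.

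Median UMIs per cell before thinning were close between the Cdkn1a classes, from 6850 against 6598 in GL261-GSCs replicate 4 to 15665 against 15436 in GL261 replicate 1. The mitochondrial share of UMIs was lower in the cells with a Cdkn1a UMI in 6 of 6 libraries, for example 1.34% against 1.47% in GL261 replicate 1 and 2.1% against 2.37% in GL261-GSCs replicate 3. The share of the nuclear transcripts Malat1 and Neat1 was lower in 5 of 6. Free RNA alone would give a Cdkn1a UMI in 1.01% of thinned cells in GL261 replicate 2 and up to 5.86% in GL261-GSCs replicate 4. Some cells can thus have entered the Cdkn1a class through free RNA. The part of any of these in the ratios was not tested.

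The same comparison with Mdm2 choosing the classes (534 to 809 cells with a UMI per library) was made in the same way, and its ratios were not tested against those of Cdkn1a. Here too many cells of the class without a UMI held one before thinning. In GL261 replicate 1, 2980 of 4808 cells held a Mdm2 UMI before thinning and 669 after. Of 11675 genes tested 534 were called (4.57%), 1% higher and 3.57% lower, and of the 8 p53 genes tested 0 were called by edgeR or limma-voom. An unadjusted p under 0.05 was reached by 1991 genes (17.1%), 4 of the 8 p53 genes among them. Sesn2 had a log2 ratio of 0.24 (positive in 6 of 6 libraries, adjusted p = 0.117), Bax -0.14 (adjusted p = 0.159), Phlda3 -0.13 (adjusted p = 0.176) and Zmat3 -0.26 (adjusted p = 0.139), the last 3 negative in 5 of 6 libraries. With cells thinned to 4000 UMIs the Zmat3 ratio was 0.13 (adjusted p = 0.187). Cdkn1a had -0.05 (SE 0.05, adjusted p = 0.722). Of 18 G2/M genes 1 was called, Ube2c (-0.13), and of 10 ATF4 targets 1 was called, Ddit3 (0.36). With cells thinned to 4000 UMIs these counts were 6 and 5, where 1796 genes were called in all.

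Cells with a Mdm2 UMI differed in make-up. Their ribosomal protein share of UMIs was lower in 6 of 6 libraries, 13.8% against 15.8% in GL261-GSCs replicate 3 and 11.8% against 14% in replicate 4, and the mitochondrial share and the nuclear transcripts Malat1 and Neat1 were higher in 5 of 6. In GL261-GSCs their median UMIs before thinning were 14905, 11186, 9557 and 5491.5 against 15434, 11956, 10765 and 6816.5 in cells without. In GL261 the order was the opposite, 15805 and 14082.5 against 15436 and 13596. The part of these differences in the ratios was not tested. The count of genes called between the Mdm2 classes ran from 4 in GL261 alone to 1796 with cells thinned to 4000 UMIs.

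**Figure D4:**
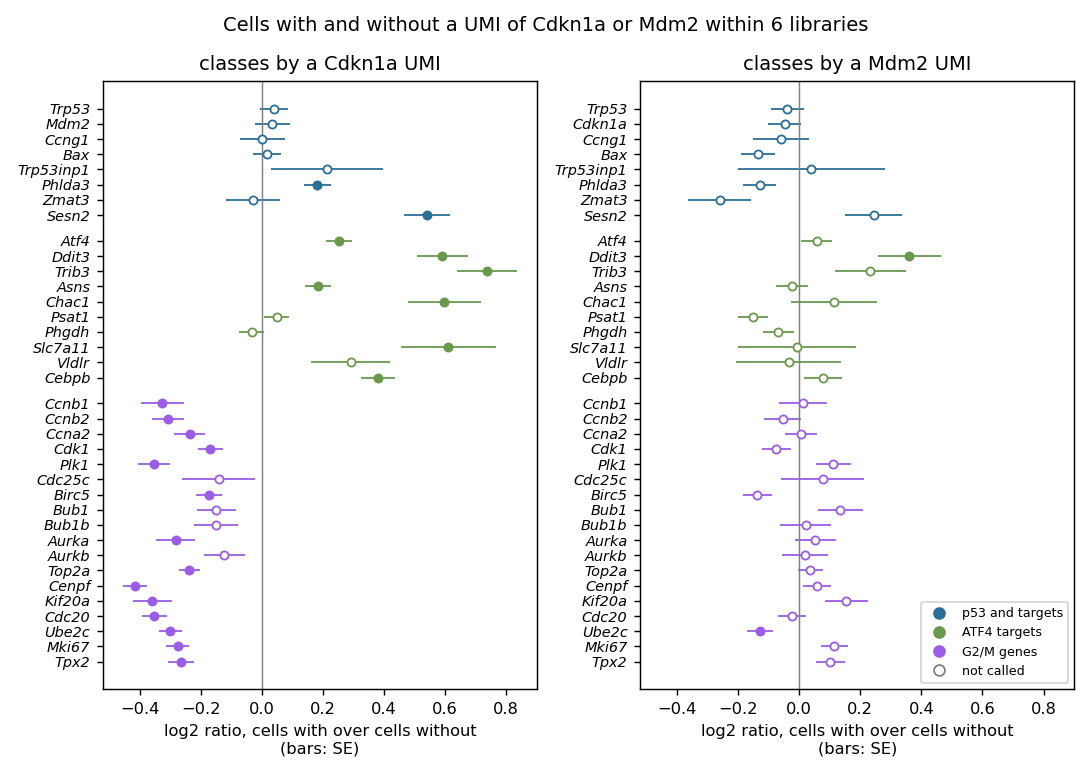
Log2 ratio of expression in cells with over cells without a UMI of Cdkn1a (left) or Mdm2 (right) within 6 libraries, with SE bars; filled points have an adjusted p under 0.05. On the left Sesn2, Phlda3 and 7 ATF4 targets are higher and 14 G2/M genes lower; on the right no p53 gene is called.

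Whether the Cdkn1a ratios differed between the groups was tested with an interaction term. Of 11933 genes, 71 were called (0.595%), 0.478% with the larger ratio in GL261-GSCs and 0.117% with the smaller, and of the 8 p53 genes 0 were, with 0 at an unadjusted p under 0.05; no other tool was run on it. For Sesn2 the ratio in GL261-GSCs minus that in GL261 was -0.16 (adjusted p = 0.855), and for Phlda3 it was 0.04 (adjusted p = 0.947). Of the 18 G2/M genes and 10 ATF4 targets 0 were called, with 2 and 3 at an unadjusted p under 0.05. The same test on the Mdm2 ratios called 2 genes (0.0171%), both with the larger ratio in GL261-GSCs (0.0171%), and 0 of the 8 p53 genes, with 0 at an unadjusted p under 0.05.

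Counted directly as cells with a UMI of both genes, Cdkn1a and Sesn2 were seen together in 534 cells where independent detection gives 411. The ratio of observed to independent was 1.19 to 1.62 over the 6 libraries. For Cdkn1a with Phlda3 it was 1.01 to 1.15, for Mdm2 with Sesn2 1.03 to 1.27, and for Cdkn1a with Mdm2 0.885 to 1.09. Phlda3 with Sesn2 lay below 1 in 6 of 6 libraries, at 0.735 to 0.975, with 365 cells where independent detection gives 410.3. Trp53 with Cdkn1a gave 0.959 to 1.07. These ratios are descriptions of cells that share a library, with no test. Every pair of the 10 genes was counted and only some are named here, without a background from pairs of other genes.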

How the data were processed

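The 2 GL261 and 4 GL261-GSCs libraries were made as droplet 5′ single-cell RNA-seq on a 10x Genomics instrument, per the labels' protocols, which do not say if whole cells or nuclei went in. The authors deposited unnormalised UMI counts for every barcode, and per the file headers the software was Cell Ranger 4. The genome build is mm10 per the submitters' processing notes. Positions come from the GENCODE M21 annotation (GRCm38) by identifier without version, which matched 99.9% of the 54446 identifiers. Bax, Sesn2 and Cdkn1a overlap annotated genes with 1, 49 and 11 UMIs in all.

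Within each library, the 3000 barcodes with the most UMIs gave a 99th percentile, and a barcode that reached 10% of it, had 500 genes or more and held less than 10% mitochondrial UMIs was called a cell. Doublets were neither called nor removed. UMIs were summed over cells per library and compared with the edgeR 4.0.16 quasi-likelihood test (TMM, filterByExpr, 2-sided, Benjamini-Hochberg over all genes tested) in R 4.3.3. A positive log2 fold change means higher in GL261-GSCs. The SE was derived as the size of the log2 value over the root of its F statistic. Shares of cells were compared by exact permutation in scipy 1.17.1, with Clopper-Pearson intervals, after cells were thinned without replacement to 2000 UMIs. Cell classes were summed within libraries from the same thinned cells and tested with the library as a block. A library with fewer than 50 cells in a class was left out. Free RNA came from barcodes of 100 to under 1000 UMIs, scaled to their median per library. Fits were run on simulated counts in which 200 genes changed by 2 on the log2 scale, at the common dispersion of each fit. The group fit recovered 164 of them with 6 false calls, and each class fit 198 with 9. Smaller changes were not simulated. The exact half-site and the full site were searched in the RefSeq promoter table.

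The 10 genes and the lists (p53 regulators, other arrest, death, and metabolism and repair targets, other CDK inhibitors, G2/M, G1/S and ATF4 target genes, cell type markers) were chosen with earlier results of these data known. Named beside the 10 genes are at most 4 called genes of each list, those with the smallest p, and the 10 genes with the smallest p among those higher and the 5 among those lower in cells with a Cdkn1a UMI, predicted and mitochondrial genes left out. Other genes of the lists that the text names were chosen after their values were seen. Replicate numbers 1 and 2 occur in both groups. Alternatives were DESeq2 1.42.0, limma-voom (limma 3.58.1), other scalings, filters, cell limits and depths, a replicate block, and each library left out. Chosen after seeing the data was the summing of GL261-GSCs replicates 1 and 2, and of 3 and 4.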

Additional observations from a re-analysis of the deposited data

Results flagged for a closer look

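A single library lay far from the other three of GL261-GSCs in the share of cells with a UMI of 3 genes at 2000 UMIs per cell. For Mdm2 it was replicate 1, at 16% where the others lay between 11.1% and 11.8%. For Trp53inp1 it was replicate 4, at 2.31% where the others lay between 1.19% and 1.33%. For Sesn2 it was replicate 3, at 5.4% where the others lay between 6.78% and 6.91%. Chance gives such a gap in about 1 in 20 groups, and the 3 found among the 39 groups of 4 libraries examined are near that rate.

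The difference between cells with and without a Cdkn1a UMI itself differed between the groups, by the test of the interaction, for 5 named genes. Over all genes tested 0.595% were called. Atf3, Klf4 and Cst6 were picked by the class comparison itself, in which GL261-GSCs has 4 of the 6 libraries. Their differences are therefore a description. The log2 ratio in GL261-GSCs minus that in GL261 was -0.72 for Atf3 (adjusted p = 0.0428) and -0.27 for Ddit4 (adjusted p = 0.02), both higher with Cdkn1a in each group. It was 0.63 for Klf4 (adjusted p = 0.0252) and 0.38 for Cst6 (adjusted p = 1.3e-04), whose ratio in GL261 alone was 0.075 and not called. For Cdkn2a it was 0.28 (adjusted p = 9.47e-04), from ratios of 0.16 in GL261-GSCs and -0.11 in GL261.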

How the results depend on the processing

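Of the 10 genes, Phlda3 and Trp53inp1 were called between the groups in each of 16 alternatives, and Sesn2 between the Cdkn1a classes in each of 13. All counts here are of genes called, and unless a value is given the cause of a change was not tested. Leaving out 1 library changed the number of the 10 genes called between the groups from 4 to between 2 and 6, with 2 when either GL261 library was left out. Over such exclusions the lists ranged from 1 to 3 (regulators), 0 to 6 (arrest), 0 to 4 (death), 2 to 4 (metabolism and repair), 0 to 3 (G2/M), 0 to 3 (G1/S) and 0 to 6 (ATF4). The calls over all genes ranged from 1817 to 6193, with 1972 without GL261 replicate 1 and 1817 without replicate 2, against 5514. DESeq2 called 6760 genes in all, among them 4 regulators, 6 G2/M genes and 7 ATF4 targets. Cells thinned to 2000 UMIs gave 3 arrest targets. Library size alone gave 1 death target, as did the sums of GL261-GSCs replicates 1 and 2 and of 3 and 4, chosen after seeing the data (1), under which E2f1, Ptprv, Pidd1 and Tnfrsf10b were not called. The log2 fold change of Zmat3 turned positive with library size alone (0.095) and ran from -0.13 to 0.036 with 1 library left out, and the difference in its share of cells turned negative without thinning (-3.78 percentage points).

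Replicate numbers 1 and 2 occur in both groups, and same-numbered libraries did not deviate together (r = -0.00712 and 0.0705), but with 2 GL261 libraries their deviations are mirror images and the check is weak. No label says what a number shares, so it was not taken to pair the libraries. With the replicate number as a block 6512 genes were called in all, among them 6 regulators, 1 death target, 7 metabolism and repair targets, 2 CDK inhibitors, 6 G2/M and 5 G1/S genes, and Trp53 passed (-0.57, adjusted p = 0.0161) while Sfn did not (-2.17, adjusted p = 0.056). Numbers 3 and 4 occur in GL261-GSCs only, so in this fit those libraries add nothing to the group difference. Its values rest on GL261-GSCs replicates 1 and 2, without replicates 3 and 4, where Trp53 was lowest. The fit leaves almost no replication from which to measure the spread, so its p-values and counts of calls are weakly founded.

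Between the Cdkn1a classes, 1 of the p53 genes was called with at least 2 UMIs, 1 with no filter and 1 in GL261 alone, and 1 to 2 with 1 library left out. GL261 alone gave 3 G2/M genes, 0 G1/S genes and 1 ATF4 target. The G1/S count was 0 with at least 2 UMIs, 2 at 4000 UMIs, 0 with no filter and 0 to 1 with 1 library left out, where G2/M ranged from 13 to 14 and ATF4 from 6 to 7. All genes called were 214 with at least 2 UMIs, 849 at 4000 UMIs, 50 in GL261 alone and 264 to 503 with 1 library left out, against 453. Log2 ratios that turned negative were those of Trp53 (-0.077 with at least 2 UMIs, -0.0019 at 4000 UMIs, -0.011 with no filter), Mdm2 (-0.026 at 4000 UMIs, -0.016 with no filter, -0.064 in GL261 alone), Ccng1 (-0.049 with no filter, -0.0080 in GL261-GSCs alone, -0.0060 to 0.015 with 1 library left out) and Bax (-0.037 with no filter), and Zmat3 ran from -0.13 to 0.058 with 1 library left out.

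Between the Mdm2 classes, 1 of the p53 genes was called at 4000 UMIs (Phlda3), 1 with library size alone (Sesn2) and 2 with no filter (Bax and Phlda3). The G2/M count was 0 with at least 2 UMIs, 6 at 4000 UMIs, 2 with library size alone, 2 with no filter, 4 in GL261-GSCs alone, 0 in GL261 alone and 0 to 2 with 1 library left out. The G1/S count was 3 at 4000 UMIs and 2 with no filter, and the ATF4 count 5 at 4000 UMIs, 0 in GL261 alone and 0 to 1 with 1 library left out. All genes called were 14 with at least 2 UMIs, 1796 at 4000 UMIs, 1023 with no filter, 869 in GL261-GSCs alone, 4 in GL261 alone and 232 to 693 with 1 library left out, against 534. The setting of at least 2 UMIs left out GL261-GSCs replicates 2 and 4, with 43 and 42 such cells. At 4000 UMIs, for Cdkn1a as for Mdm2, cells below that depth dropped out, 1326 of 4512 in GL261-GSCs replicate 4. Those counts rest on other sets of libraries or cells than the 534. Signs turned for Trp53 (0.018 with library size alone), Cdkn1a (0.029 with at least 2 UMIs, 0.015 with library size alone), Ccng1 (0.093 in GL261 alone), Trp53inp1 (-0.019 with no filter, -0.12 to 0.17 with 1 library left out) and Zmat3 (0.13 at 4000 UMIs). The interaction had no alternative. At 2000 UMIs per cell, most transcripts of a gene as scarce as Trp53inp1 go unseen, and a cell without a UMI is not shown to lack the transcript.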

Other observations

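Free RNA held the p53 genes in other proportions than the cells did. The CPM in the barcodes of 100 to under 1000 UMIs was divided by that in called cells, both without TMM. In this ratio Cdkn1a was at 1.1 to 1.28, Trp53 at 1.08 to 1.21 and Ccng1 at 1.04 to 1.19, each above 1 in 6 of 6 libraries. Sesn2 was at 0.562 to 0.801, Phlda3 at 0.742 to 0.862, Bax at 0.81 to 0.968 and Mdm2 at 0.761 to 0.938, each below 1 in 6 of 6 libraries. Trp53inp1 was at 0.83 to 1.43, above 1 in 5 of 6, and Zmat3 at 0.818 to 1.005, above 1 in 1 of 6.

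Zmat3 and Bax were seen together in 336 cells where independent detection gives 387, with ratios of 0.752 to 0.967 over the 6 libraries. The pair was picked from all the pairs counted, and its ratio was not tested. Chromosome 3, which holds Zmat3, had a median log2 difference of -0.27 in GL261-GSCs replicate 1 against the other stem cell libraries, and Zmat3 was lowest in that library at 22.9 CPM. The part of the chromosome in that single Zmat3 value was not tested.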
